A study of Xenopus laevis with 6 samples.

Results

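The egg coat genes of the African clawed frog Xenopus laevis were followed in testis. They were taken from the deposited mRNA table as the rows with a zp symbol and a description naming the zona pellucida, together with the rows described as a zona pellucida sperm-binding protein and zp4.S. The sperm-side zpbp rows were left out. This gave 11 of 31598 rows: zp2.L, zp4.L, zp4.S, zpd.L, zpy1.S, zpld1.S, LOC108703555, LOC108707912, LOC108707913, LOC108711784 and LOC108715337. Testes of frogs kept in 100 µg/L of the triazine herbicide atrazine for 180 days were compared with testes of unexposed control frogs. Each group had 3 libraries, all at postnatal day 193. The exposure began 13 days after the start of that count, by the stage label. RNA was depleted of rRNA and made into stranded libraries. Whether the libraries of a group come from different frogs is not stated in the labels, so the p-values below describe a spread between libraries that may be technical.

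The egg coat is called the vitelline envelope in frogs and the zona pellucida in mammals. In both it is a mesh of glycoproteins that the oocyte secretes around itself. Its proteins share the zona pellucida domain, through which they join into filaments, and they are cut free of the membrane by furin-like proteases before assembly. The Xenopus envelope contains products of zp2 (ZPA), zp4 (ZPB), a zp3-type gene (ZPC), zpd and zpax, and sperm bind to it at fertilisation. These genes are best known as markers of growing oocytes, and in mouse their transcription in the oocyte depends on the factor FIGLA.

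By the deposited descriptions 3 rows are of the zp3 type (LOC108703555, LOC108711784 and LOC108715337) and 4 of the zp4 type (zp4.L, zp4.S, LOC108707912 and LOC108707913). The other rows are zp2.L, the envelope component zpd.L, zpy1.S of the zpy lineage, and zpld1.S. The zpld1 gene encodes a related protein with a zona pellucida domain that is known from the inner ear of other vertebrates and is not an egg coat protein. It met the rule through its symbol and description. Related rows that the wording of the rule leaves out number 4. They are xlzpc, described as the ZPC glycoprotein; zpax.L, described as an egg envelope component; LOC734156, zpy1.L in assembly v10.1; and LOC108707725, zpld1.L in assembly v10.1. Descriptions are missing for 9072 rows of the table, and an egg coat gene among those could be found only by its symbol.

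X. laevis is an allotetraploid with chromosome sets called L and S, and some of the rows have a listed counterpart on the other set. Positions below are those of the deposited table, whose genome build the sources used here do not name. The row deposited as zp4.S lies at 14352708 to 14360469 on the minus strand of a sequence that most other rows place on chromosome 3L. Its deposited annotation says 3S. Of its neighbours within 1 Mb, all 27 that have a place in assembly v10.1 are on 3L there. The only circular RNA listed for zp4.S was assigned by the authors to a transcript that assembly v10.1 gives to zp4.L. The row deposited as zp4.L shows the mirror image, lying at 14655307 to 14661783 on a sequence of chromosome 3S, with 26 of 26 placed neighbours on 3S. The suffixes of this pair are therefore not settled, and both names are used below only as the table's row names.

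The other rows were placed without such a conflict or lay on an unplaced sequence. Those on the unplaced sequence, zpy1.S, xlzpc and LOC108703555, are deposited as 5L, while assembly v10.1 puts them on 3S. LOC108715337 lies on chromosome 1L at 143277268 to 143291204, zpd.L on 4L at 65277076 to 65286109 and zp2.L on 9_10L at 101128220 to 101147219. On 2L the zp4-type rows LOC108707912 and LOC108707913 are 4 kb apart. On 3L the zpy1 row LOC734156 and the zp3-type row LOC108711784 are 343.7 kb apart. Their S counterparts zpy1.S and xlzpc are 186.3 kb apart on an unplaced sequence, which assembly v10.1 puts on 3S. The zpy1 and ZPC genes thus lie within 1 Mb of each other in both sets. Between L and S copies that are similar in sequence, reads can be shared, and the sources used here do not say how the authors assigned such reads.

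Values are FPKM, fragments counted per length of transcript and per size of library, which allows levels to be compared between genes. Beside FPKM the table holds a scaled signal in which nearly every value is a whole multiple of a fixed step per library, at a tolerance of 0.02. Taken as the value of 1 read, that step gave an estimated 7360633 reads in atrazine replicate 3 and between 13784688 and 17018688 in the other libraries. Read numbers of genes below are estimates of the same kind. All signal values of the 11 rows came out whole. Atrazine replicate 3 is thus the least precise library for low rows.

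Most egg coat rows were barely detected in testis, and a few were not. Only 4 of the 11 reached 0.5 FPKM in at least 3 libraries and were tested. These were zpd.L, LOC108715337, zp4.S and zpy1.S, with means over all libraries of 8.87, 7.31, 3.79 and 0.543 FPKM. The first 3 ranked above 62.4%, 58.5% and 47.8% of all mRNA rows by mean FPKM, so they lay near the middle of the table, and zpy1.S ranked above 25.9%. The row zpd.L was above LOC108715337 in 4 of 6 libraries and below it in the others, so these rows do not differ in level beyond their spread. LOC108715337 was above zp4.S in 5 of 6 libraries, all but control replicate 3, and its values in atrazine libraries all lay above those of zp4.S. The row zp4.S was above zpy1.S in 6 of 6 libraries. The remaining 7 rows lay between 0 and 2.04 FPKM. They were listed at 0 in 7 of their 42 values and together held an estimated 238 reads over all libraries, with at most 37 for a row in a library.

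**Figure D1:**
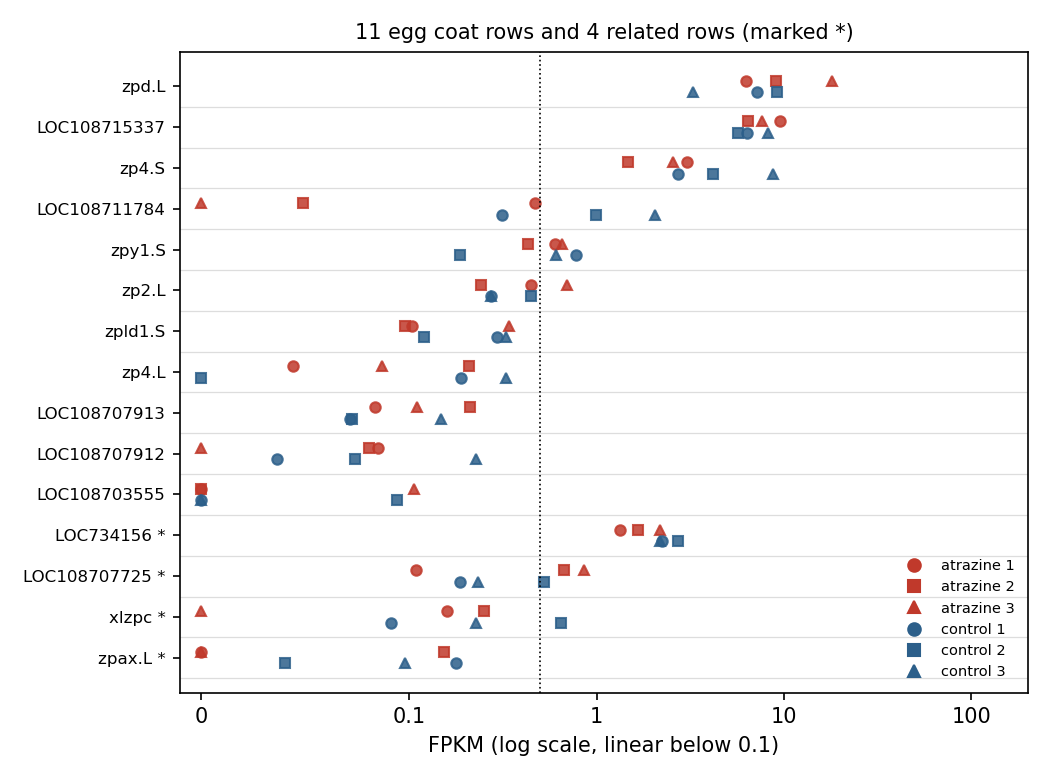
FPKM of the 11 egg coat rows and of 4 related rows outside the rule (asterisks) in each library, atrazine in red above control in blue, on a log axis that is linear below 0.1. The dotted line marks 0.5 FPKM, and zpd.L, LOC108715337 and zp4.S lie to its right in every library.

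The comparison asked whether egg coat genes differed between exposed and unexposed testes. None of the 4 tested rows passed, against 0% of the 23824 mRNA rows tested (limma on log2(FPKM + 1), Benjamini-Hochberg adjustment over all rows, threshold 0.05). Before adjustment, a p below 0.05 was reached by 1 of the 4 rows, zp4.S, and by 1410 rows (5.92%) of the table. The groups overlapped in all 4 rows, while 11.3% of all tested rows had no overlap. In bulk RNA, fewer cells of a type and less RNA per cell cannot be told apart.

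The row zp4.S, the ZPB-type coat gene, stood at 3.04, 1.48 and 2.55 FPKM in atrazine replicates 1 to 3, an estimated 68, 35 and 29 reads. In control replicates 1 to 3 it stood at 2.72, 4.21 and 8.75 FPKM, an estimated 71, 108 and 184 reads. Control replicate 3 was the highest by a wide margin, and control replicate 1 lay below atrazine replicate 1, so the groups overlapped. Means were 2.36 ± 0.798 FPKM in exposed and 5.22 ± 3.14 FPKM in control testes (SD, n = 3 each). The log2 fold change, atrazine over control on the log2(FPKM + 1) scale, was -0.80 ± 0.34 (SE), with a 95% interval of -1.58 to -0.024 before adjustment. The limma p was 0.0446 and its adjusted p 0.693. Without control replicate 3 the log2 fold change was -0.42, and without control replicate 1 it was -1.11.

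The row zpd.L, which encodes a component of the Xenopus envelope, stood at 6.29, 9.12 and 18.1 FPKM in atrazine libraries, an estimated 107, 166 and 157 reads. In control libraries it stood at 7.20, 9.19 and 3.26 FPKM, an estimated 143, 181 and 52 reads. Here atrazine replicate 3 was the highest library and control replicate 3 the lowest, and the other 4 libraries mixed. Means were 11.2 ± 6.19 FPKM in exposed and 6.55 ± 3.02 FPKM in control testes (SD, n = 3 each). The log2 fold change was 0.66 ± 0.40 (SE) with a 95% interval of -0.25 to 1.58 and a limma adjusted p of 0.693. It was 0.28 without atrazine replicate 3 and 0.30 without control replicate 3.

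The zp3-type row LOC108715337 was the steadiest of the better expressed rows. It stood at 9.56, 6.45 and 7.62 FPKM in atrazine libraries, an estimated 185, 132 and 75 reads, and at 6.37, 5.68 and 8.19 FPKM in control libraries, an estimated 144, 126 and 149 reads. The lowest and highest values of the groups interleaved, and no library stood apart. Its log2 fold change was 0.19 ± 0.18 (SE), with a 95% interval of -0.22 to 0.61 and a limma adjusted p of 0.745. The row zpy1.S stood at 0.598, 0.430 and 0.658 FPKM in atrazine libraries and at 0.777, 0.187 and 0.608 FPKM in control libraries, on an estimated 9 to 38 reads per library. Its log2 fold change was 0.053 ± 0.18 (SE), with a 95% interval of -0.36 to 0.47 and a limma adjusted p of 0.931. Without control replicate 2, its lowest library, the direction turned, to -0.12. The SE for zpy1.S was 0.48 with a pseudocount of 0.1 and 0.51 with the deposited signal. Its narrow interval above thus holds only for FPKM with a pseudocount of 1.

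**Figure D2:**
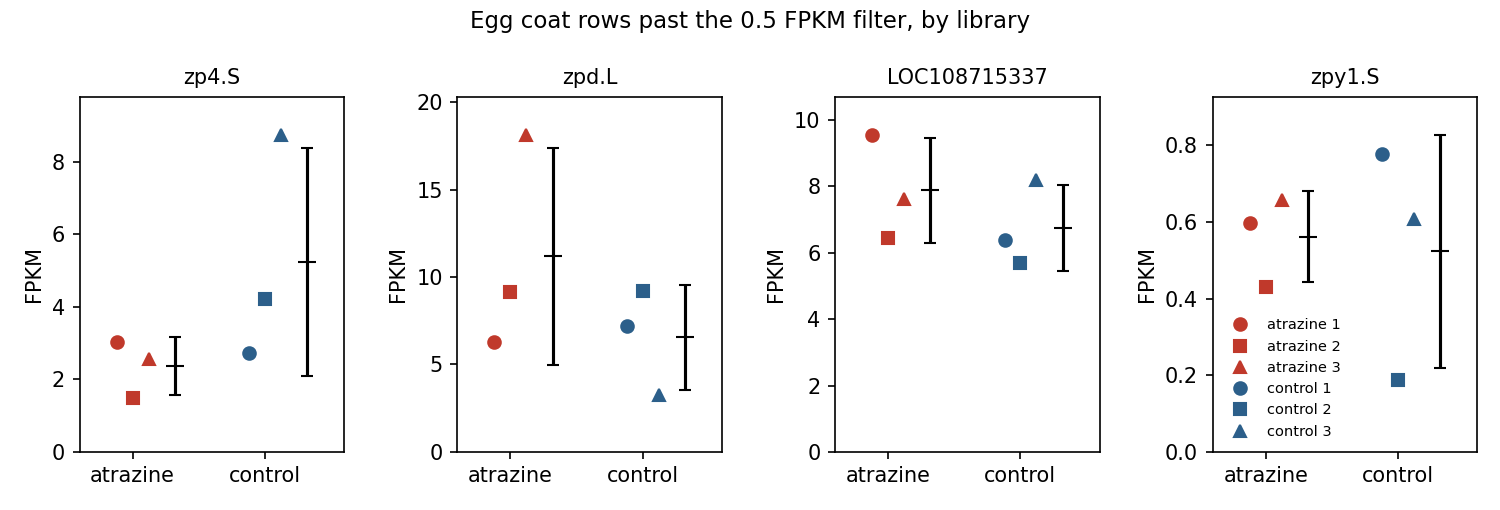
FPKM of the 4 tested egg coat rows in each library, atrazine left of control, with the mean and SD of each group as black bars and each axis starting at 0. Control replicate 3 is the highest point of zp4.S at 8.75 FPKM and the lowest of zpd.L at 3.26 FPKM.

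**Figure D3:**
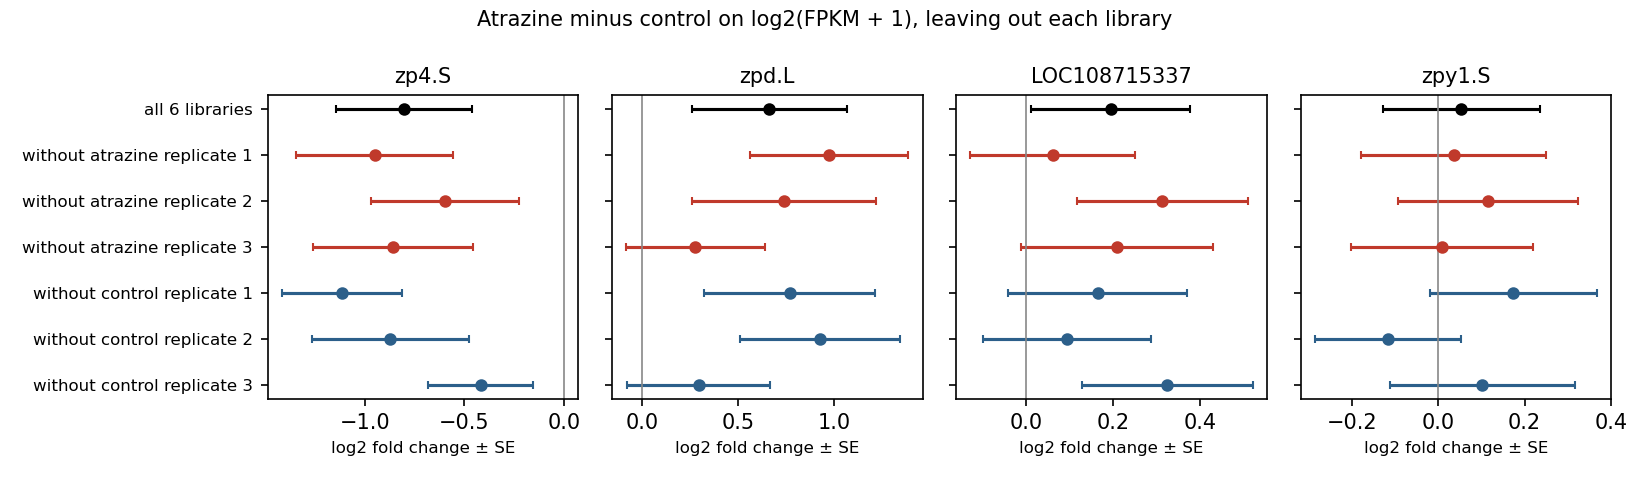
Log2 fold change with its standard error, atrazine over control, from all 6 libraries (black) and with each library left out in turn, for the 4 tested rows. The value of zp4.S stays below 0, between -1.11 and -0.42, and that of zpd.L stays above 0, between 0.28 and 0.97.

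The 7 rows under the filter gave values too low for a test in the reported fit. The zp3-type row LOC108711784, on chromosome 3L at 139127602 to 139131773, had the most reads among them. It had 0.467, 0.0491 and 0 FPKM in atrazine libraries, an estimated 9, 1 and 0 reads, and 0.311, 0.996 and 2.04 FPKM in control libraries, an estimated 7, 22 and 37 reads. Its highest library was control replicate 3, as for zp4.S, and control replicate 1 again lay below atrazine replicate 1. Over the 6 libraries its log2(FPKM + 1) followed that of zp4.S with a Pearson r of 0.95. That is a description chosen after the values were seen. With no filter on low values, limma gave this row a log2 fold change of -0.79 and an adjusted p of 0.722. The same fit called 0 of all 31598 rows, and 0 of the 11 egg coat rows had an unadjusted p below 0.05 in it.

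The sperm-binding component zp2.L had 0.448, 0.242 and 0.692 FPKM in atrazine libraries and 0.274, 0.445 and 0.272 FPKM in control libraries, on an estimated 8 to 16 reads each. Those ranges overlapped. The row deposited as zp4.L held an estimated 7 reads in atrazine and 12 in control libraries, summed over each group. The adjacent zp4-type rows on 2L were as low. LOC108707912, which assembly v10.1 names zp4.2.L, held 4 reads in atrazine and 8 in control libraries. LOC108707913 held 13 reads in atrazine and 11 in control libraries. The inner ear gene zpld1.S held 11 reads in atrazine and 23 in control libraries, and LOC108703555 held 2 in atrazine and 4 in control libraries. These rows were not tested in the reported fit, and on so few reads their values are imprecise in either group.

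Summed over all 11 rows, egg coat FPKM was 20.7, 18.4 and 30.3 in atrazine libraries and 18.2, 21.1 and 24.2 in control libraries. The ranges overlapped, with means of 23.1 ± 6.32 in atrazine and 21.2 ± 2.96 in control (SD, n = 3 each). The 3 best expressed rows made up 91.2%, 92.8% and 93.4% of the sum in atrazine libraries and 89.3%, 90.6% and 83.6% in control libraries. The mixture of rows varied between libraries. The share of zpd.L was 30.4%, 49.6% and 59.9% in atrazine libraries and 39.5%, 43.6% and 13.5% in control libraries. The share of zp4.S was 14.7%, 8.06% and 8.41% in atrazine libraries and 14.9%, 20.0% and 36.2% in control libraries. The ratio of zpd.L to zp4.S was 2.07, 6.16 and 7.12 in atrazine libraries and 2.65, 2.18 and 0.372 in control libraries, so atrazine replicate 1 lay among the controls.

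**Figure D4:**
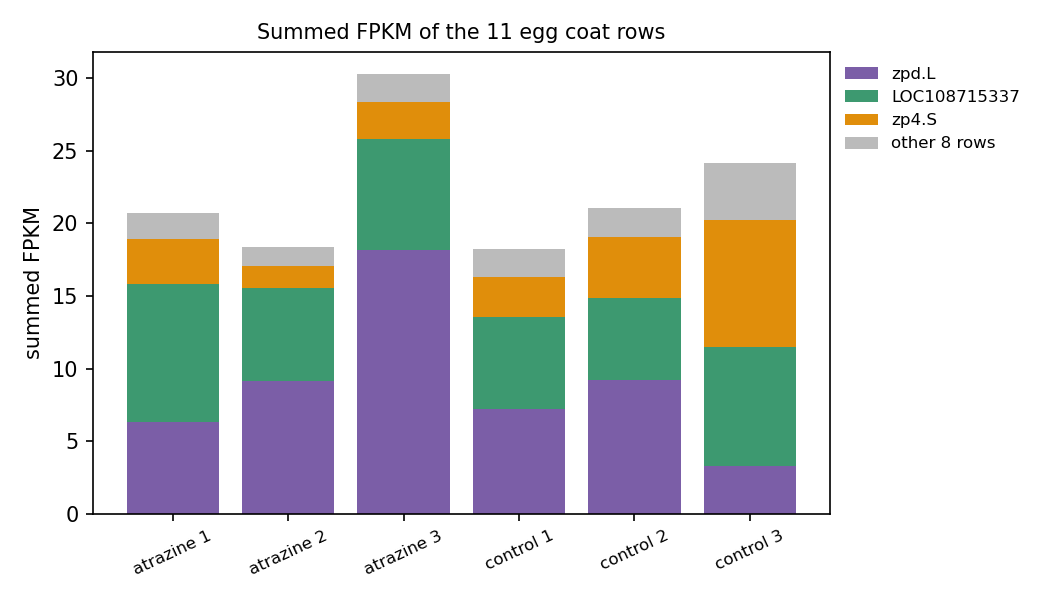
Summed FPKM of the 11 egg coat rows in each library as stacked bars from 0, split into zpd.L, LOC108715337, zp4.S and the other 8 rows. The sum is highest in atrazine replicate 3 at 30.3 FPKM, where zpd.L makes up 59.9% of it.

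Of 4 pairs of copies on the paired chromosome sets, 2 had the same copy higher in every library. The row zp4.S was above zp4.L in 6 of 6 libraries, with means over all libraries of 3.79 and 0.143 FPKM. The zpy1 copy LOC734156, which lies outside the rule, was above zpy1.S in 6 of 6 libraries, at means of 2.05 and 0.543 FPKM. It stood at 1.34, 1.67 and 2.17 FPKM in atrazine libraries and at 2.23, 2.72 and 2.17 FPKM in control libraries, with atrazine replicate 3 just above control replicate 3. Its log2 fold change was -0.31 ± 0.16 (SE) with a limma adjusted p of 0.693. The ZPC-type copies LOC108711784 and xlzpc had means of 0.645 and 0.230 FPKM, and the first was higher in 4 of 6 libraries. Both were at 0 in atrazine replicate 3. The row xlzpc was higher only in atrazine replicate 2, on an estimated 5 reads against 1. The zpld1 copies LOC108707725 and zpld1.S had means of 0.429 and 0.214 FPKM, the first higher in 4 of 6 libraries. In these last pairs the order of the copies varied between libraries. The ZPAX row zpax.L held an estimated 7 reads in atrazine and 15 in control libraries. It spans 141708330 to 142258911 on 5L in the table.

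Rows most like zp4.S over the 6 libraries were sought among 8937 rows with a gene symbol and a mean of at least 1 FPKM, by Pearson r of log2(FPKM + 1). Among the 5 closest were galnt4.L (r = 0.99), a glycosyltransferase gene, nme5.L (0.99), a nucleoside diphosphate kinase family gene of ciliated cells and sperm, ercc1.L (0.98), a DNA repair gene, and cdc34.L (0.98), a ubiquitin-conjugating enzyme gene. With 6 libraries a high r is common, and 105 of the rows exceeded 0.9. The widest range among these was that of nme5.L. It stood at 42.1, 32.6 and 43.5 FPKM in atrazine libraries and 38.9, 52.9 and 76.3 FPKM in control libraries.

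By the same measure, looked at after the values were seen, zpd.L was closest to mvb12b.S (r = 0.99), alpi.1.L, flnc.L, pcdh8.2.L and fshr.L (0.96). The last encodes the receptor of follicle-stimulating hormone, carried in the testis by Sertoli cells. The other copy of that gene, fshr.S, was lowest in atrazine replicate 3, at 5.48 FPKM, where zpd.L was highest. For zpd.L 35 of the rows exceeded an r of 0.9, so the likeness is of a single copy among many rows. The row LOC108715337 was closest to lrfn4.L (r = 0.99), apitd1.L, lars2.L, pnrc2.S and mios.S (0.96). None of these genes was shared between the lists of the 3 rows. Between the tested egg coat rows themselves r was -0.68 for zp4.S and zpd.L, 0.25 for zp4.S and LOC108715337, and -0.31 for zpd.L and LOC108715337.

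Markers of testis germ cells followed zp4.S across the libraries to differing degrees. Over the 9 rows of testis germ cell markers, r to zp4.S lay between -0.34 for ddx4.L and 0.98 for dazl.L. The level of dazl.L hardly varied, from 445 to 484 FPKM, and r was 0.64 for sp4-c. The sperm flagellum gene odf3.L had 73.8, 25.7 and 49.2 FPKM in atrazine libraries and 56.5, 105 and 95.4 FPKM in control libraries, with an r to zp4.S of 0.83. The flagellar tektin gene tekt1.L had 134, 100.0 and 149 FPKM in atrazine libraries and 127, 203 and 202 FPKM in control libraries, with an r of 0.87. In both genes control replicates 2 and 3 were the highest libraries, as in zp4.S. Summed over the 9 rows, none of them at 0, the level was 1627, 1467 and 1554 FPKM in atrazine libraries and 2012, 2533 and 2241 FPKM in control libraries, with no overlap. The sum was given no test. The sperm nuclear protein gene sp4-c made up most of that gap, at 290.4, 335 and 362 FPKM in atrazine libraries and 713, 1207 and 856 FPKM in control libraries. The groups did not overlap in sp4-c, as in 11.3% of all tested rows. It was not called, with a log2 fold change of -1.46 and a limma adjusted p of 0.406. Without it the sum was 1336, 1132 and 1192 FPKM in atrazine libraries and 1299, 1326 and 1385 FPKM in control libraries, and the groups overlapped. For 11 rows of liver and fat body markers, of which 3 had a mean of 1 FPKM or more, it was 11.1, 11.5 and 12.6 FPKM in atrazine libraries and 8.45, 22.6 and 20.4 FPKM in control libraries. Among those 3 rows r to zp4.S was 0.78 for fgb.L, 0.58 for alb.S and 0.55 for fabp4.L. The part of germ cells or of liver and fat body in the values of zp4.S was not tested.

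The tissue label was checked against markers of Sertoli cells, Leydig cells and testis germ cells, and all 18 rows had a mean of 1 FPKM or more. Of 10 rows of defining oocyte markers 3 reached that mean, figla.L and mos.L the highest. The third was zar1.L (LOC108698314), between 0.226 and 1.81 FPKM. The oocyte-secreted growth factor genes gdf9.L and gdf9.S (LOC108710928 and LOC108713269) stayed between 0.242 and 0.689 FPKM, and the oocyte linker histone rows h1foo.S and LOC108714645 between 0 and 0.364 FPKM. The growth factor gene bmp15.L (LOC108698258) reached at most 1.24 FPKM. The summed oocyte markers were 116, 82.0 and 85.9 FPKM in atrazine libraries and 106, 86.0 and 96.6 FPKM in control libraries. Without figla.L and mos.L, left out after the values were seen, they were 3.62, 3.66 and 3.60 FPKM in atrazine libraries. In control libraries they were then 3.35, 3.56 and 3.96 FPKM, with overlapping ranges. Follicle cell markers foxl2 and cyp19a1 stayed at or below 0.418 FPKM, while fshr, also a Sertoli cell gene, did not.

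**Figure D5:**
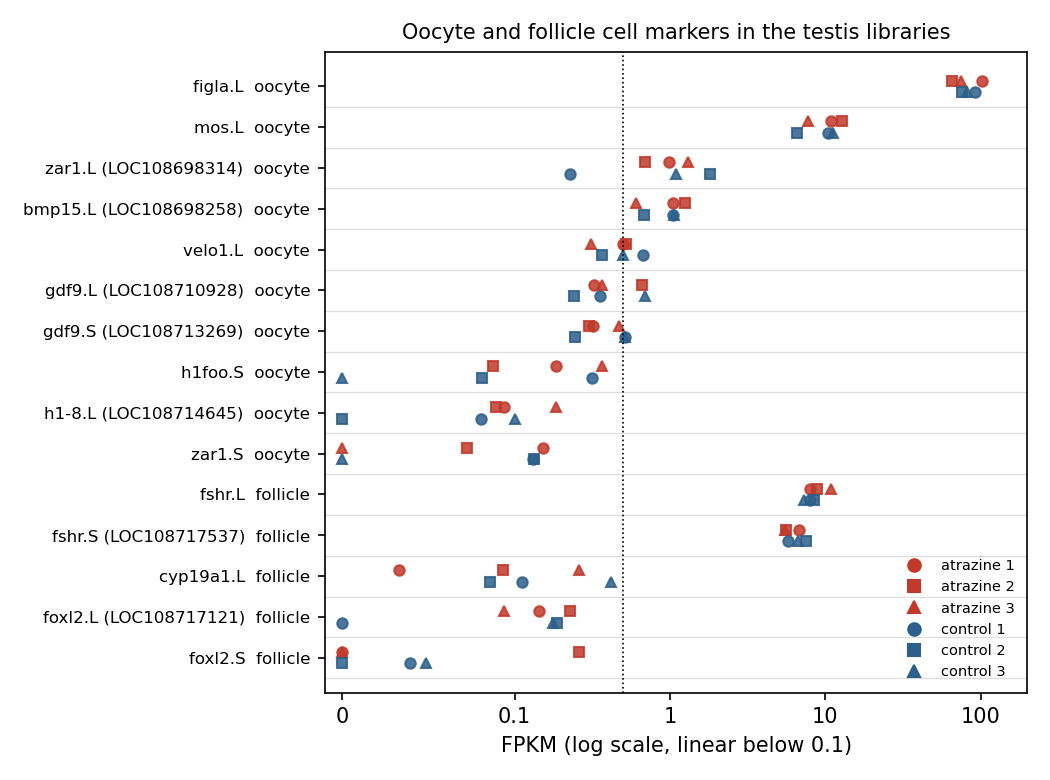
FPKM of 10 oocyte and 5 follicle cell marker rows in each library, atrazine in red above control in blue, on a log axis that is linear below 0.1, with the dotted line at 0.5 FPKM. The row figla.L stands alone near the top of the scale, and gdf9, h1-8, zar1.S, foxl2 and cyp19a1 lie mostly left of the line.

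The regulator named above was abundant. The row figla.L, the transcription factor gene that drives egg coat genes in mouse oocytes, averaged 80.7 ± 18.9 FPKM in exposed and 83.1 ± 8.15 FPKM in control testes (SD, n = 3 each). Its log2 fold change was -0.063 with a limma adjusted p of 0.916. The oocyte homeobox gene lhx8.L averaged 31.1 ± 7.02 FPKM in exposed and 25.6 ± 5.35 FPKM in control testes (SD, n = 3 each). The row tbpl2.L, which encodes the oocyte form of the TATA-binding protein, averaged 13.6 ± 1.11 FPKM in exposed and 11.8 ± 2.15 FPKM in control testes (SD, n = 3 each). All of these overlapped between the groups. Of the 3 tested rows of this list 2 were higher and 1 lower, none was called, and the log2 fold changes had a median of 0.19. Over all tested rows 13659 were higher and 10165 lower, with a median of 0.040.

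Other genes around the egg coat gave no called row in either direction. Oocyte genes outside the coat had 14 rows higher and 14 lower of 28 tested, and the median of their log2 fold changes was 0.0028. Of the 35 rows found, 11 had a mean under 1 FPKM. Several of their most abundant rows also belong to male germ cells. The RNA-binding protein gene ybx2.S stood at 363, 242 and 324 FPKM in atrazine libraries and at 384, 511 and 395 FPKM in control libraries. Its groups did not overlap, as in 11.3% of all tested rows. Its log2 fold change was -0.48 and its limma adjusted p 0.693. The RNA helicase gene ddx25.L averaged 158 ± 27.8 FPKM in exposed and 132 ± 38.8 FPKM in control testes (SD, n = 3 each). The astacin-like protease row astl.L, which assembly v10.1 names astl2b.L, averaged 329 ± 76.6 FPKM in exposed and 433 ± 76.5 FPKM in control testes (SD, n = 3 each). Ovarian follicle cell genes had 5 rows higher and 1 lower of 6, with a median of 0.18. Their most abundant row was inha.S, an inhibin subunit gene, at 48.7 ± 4.91 FPKM in exposed and 42.7 ± 1.36 FPKM in control testes (SD, n = 3 each). The groups did not overlap in inha.S, as in 11.3% of all tested rows, and its limma adjusted p was 0.693. This list also holds fshr.L, likewise a Sertoli cell gene, so it does not separate ovary from testis cells.

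In the list for the sperm side of egg coat binding 3 rows were higher and 3 lower of 6 tested, with a median of -0.036. Its 33 symbols matched 7 rows as deposited and 17 rows with v10.1 symbols. That list also holds spag6.L, its most abundant row, and cd9.L. Its counts are thus of listed symbols and not only of sperm proteins that bind the coat. Among its rows zpbp2.L, which encodes a protein of the acrosome, averaged 11.8 ± 2.08 FPKM in exposed and 13.1 ± 2.64 FPKM in control testes (SD, n = 3 each). The sperm protease gene pcsk4.L averaged 20.7 ± 1.04 FPKM in exposed and 21.9 ± 0.655 FPKM in control testes (SD, n = 3 each). Envelope processing and cortical granule genes had 7 rows higher and 4 lower of 11, with a median of 0.048. The protease gene furin.L averaged 11.05 ± 1.66 FPKM in exposed and 10.8 ± 0.611 FPKM in control testes (SD, n = 3 each). Of the zona pellucida domain genes outside the coat, deposited symbols matched 3 rows. Of these 1 was tested, cuzd1.L, with a log2 fold change of 0.059. With v10.1 symbols 17 rows were found and 9 tested, 6 higher and 3 lower, with 0 called and a median of 0.14. The small number thus reflects the deposited symbols. The list of testis cells had 4 rows higher and 14 lower of 18, with a median of -0.19. The liver and fat body list had 5 higher and 8 lower of 13, with a median of -0.071.

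Circular RNAs from egg coat genes were rare. Back-splice junction reads were listed for 10 rings of 6 of the egg coat and related genes, 41 reads in all among 68575 rings of the table, all from exons. The smallest count above 0 is 2, so rings seen by a lone read cannot appear. The gene with most of these reads was LOC108715337. Its ring from 143278628 to 143280744 had 3, 0 and 0 reads in atrazine libraries and 0, 3 and 4 reads in control libraries. It was the only one with 2 reads in at least 3 libraries, and its log2 fold change was -1.03 with an adjusted p of 0.999 in edgeR's quasi-likelihood test, where 0% of 6592 rings were called. Across all rings edgeR gave 414 and DESeq2 119 at an unadjusted p under 0.05, with 0 called by either. The other ring of this gene had 3 reads in atrazine replicate 2 and 6 in control replicate 2. The zp4.S ring had 4 reads, all in atrazine replicate 2, where the FPKM of that row was lowest.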

How the data were processed

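The authors deposited FPKM values per mRNA gene, per the file headers, together with a signal per gene headed as counts that is not whole and was scaled per library. They also deposited raw back-splice junction counts per circRNA, per the file headers. Per the submitters' processing notes CASAVA 1.8, Bowtie2 and HISAT2 were used, for steps that are not named. The sources used here name no quantifier, circRNA caller, annotation or build. FPKM depends on the annotated transcript length. No count model was run on the mRNA signal, since a few of its values are not multiples of its step. In all, 18 columns of per-sample values (lncRNA table, normalized circRNA values) were not used here.

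mRNA rows that reached 0.5 FPKM in 3 or more libraries were fitted with limma 3.58.1 (R 4.3.3, eBayes with a trend) on log2(FPKM + 1), with group as the only term, two-sided, with Benjamini-Hochberg adjustment over all rows. circRNAs that reached 2 reads in 3 or more libraries were tested with edgeR 4.0.16 (TMM factors, quasi-likelihood), and DESeq2 1.42.0 was an alternative. In the circRNA table, control columns have a shortened name, which was matched by number. Both fits were tested on simulated data, with large changes planted in better expressed rows and rings. Those tests do not cover rows as low as most egg coat rows. Names and chromosomes, but no coordinates, came from the table of assembly v10.1, which matched 28841 rows. Neighbours were found by their deposited positions.

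The members, the 8 gene lists and the tests were chosen with earlier results of these data known. Named genes were the members, up to 4 rows of highest mean per list, and the 5 rows most like zp4.S, of which 1 is not reported here; others are said to be chosen after their values were seen. Alternatives were another pseudocount, other filters, median-of-ratios scaling, the signal in place of FPKM, a replicate block, v10.1 symbols and leaving out each library. Same-numbered libraries were not paired by the labels. Depth sets counting error only, and PCR copies cannot be told from separate molecules.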

Additional observations from a re-analysis of the deposited data

How the results depend on the processing

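The count of called mRNA rows was 0 in the reported fit, 1 with the deposited signal in place of FPKM, and 0 to 5 with libraries left out: 5 without control replicate 1 and 1 without atrazine replicate 3. No egg coat row was called in any of these. The log2 fold changes of zp4.S, zpd.L and LOC108715337 kept their direction under all 12 alternatives, ranging from -1.11 to -0.42, 0.28 to 0.97 and 0.062 to 0.32. That of zpy1.S was 0.053 as reported, -0.12 without control replicate 2 and up to 0.17 with other libraries left out, 0.22 with a pseudocount of 0.1 and 0.29 with the deposited signal, and the row drops out at a filter of 1 FPKM. The cause was not tested. The difference in summed FPKM, atrazine minus control, was 1.98 as reported, -1.60 (without atrazine replicate 3) to 4.36 (without atrazine replicate 2) with libraries left out, 0.53 without control replicate 1, and -2.66 without zpd.L, so its direction is not settled.

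With the replicate number as a block 0 mRNA rows were called. There zp4.S had the same fold change, a limma p of 0.0339 and an adjusted p of 0.801. With libraries left out, its unadjusted limma p ranged from 0.00568 (without control replicate 1) to 0.149 (without atrazine replicate 2). Deviations of same-numbered libraries from their group means correlated at 0.025, -0.35 and -0.039. Those of differently numbered libraries correlated at -0.36 to 0.41. With 3 libraries per group such deviations are tied to each other, so they cannot decide whether the numbers pair the libraries. The count of called circRNAs was 0 as reported, 1 with the replicate block, 3 without a filter on low counts, and 0 to 2 with libraries left out (2 without control replicate 1 or 3). These circRNA alternatives, the sum without zpd.L or with related rows, and leaving out libraries for the lists were chosen after seeing the data. So were the germ cell sum without sp4-c and the oocyte marker sum without figla.L and mos.L. The median of follicle cell genes was 0.043 with v10.1 symbols. With libraries left out or v10.1 symbols, list medians turned direction for oocyte genes (-0.11 to 0.075), the sperm side (-0.14 to 0.014), envelope processing (-0.064 to 0.14), zona pellucida domain genes (-0.023 to 0.14) and liver and fat body (-0.15 to 0.080). That of regulators ranged from 0.058 to 0.30, and that of testis cells stayed below 0, from -0.26 to -0.13. Low depth limits all rows under 0.5 FPKM.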
